A study of Mus musculus with 4 samples.

Results

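Calbindins, calmodulins and neuronal calcium sensors are small proteins that bind calcium through EF-hand loops. The 9 described here were taken by name from a table of transcript isoforms of the mouse retina: the calmodulin genes Calm2 and Calm3, the buffers Calb1 (calbindin), Calb2 (calretinin) and Pvalb (parvalbumin), and the sensors Hpca (hippocalcin), Hpcal1, Ncald (neurocalcin delta) and Vsnl1 (visinin-like 1). All 9 members were found, among 13452 Ensembl genes, and they held 18 of the 44325 isoforms. Retinas of male, wild-type mice of the inbred strain C57BL6/J gave 4 libraries of single-cell cDNA, made with 10x Genomics chemistry and read as long nanopore reads. Of these, 2 libraries had no enrichment, 1 of them from postnatal day 40 and the other with no age in the labels. A further library was labelled CD73 enrichment, from postnatal week 8, and another CD90.2 enrichment, from postnatal month 4. The labels' protocol describes magnetic depletion of CD73-positive photoreceptors and magnetic selection of CD90.2-positive neurons, whereas the series design text speaks of sorting.

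The deposited counts are given for 6 cell classes and not for libraries. The classes are retinal ganglion cells (RGC), amacrine cells (AC), rods, cones, bipolar cells (BC) and the glial cells of the retina, Müller glia (MG). A class is therefore 1 sample, and the enrichments and ages cannot be compared. No replicate error could be given, no test between classes was possible, and differences are described by size, with 95% intervals that cover counting error only. Levels are counts per 1000000 of a column (CPM), and column totals ran from 3509890 counts in RGC to 55437340 in rods. All 6 of the marker genes listed for each of the 6 classes were highest in the column of their own class. A level is a sum over the cells of a class, so a few cells with much RNA and many cells with little cannot be told apart.

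Calcium sensors and calcium buffers share the EF-hand but act differently. Calmodulin and the neuronal calcium sensors change shape when calcium binds and then act on enzymes, channels or membranes, whereas calbindin, calretinin and parvalbumin mainly take up calcium and shape its rise and decay. In the retina, calretinin, calbindin and parvalbumin are used as antibody markers of subsets of amacrine, ganglion and horizontal cells.

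The members fell into families that could be read from their coding exons in GENCODE M21. Calm2 and Calm3 both had 6 coding exons with the same lengths, and their coding sequences of 447 nt differed at 78 positions (82.6% identity) while translating to the same 149 residues. Hpca, Hpcal1 and Ncald each had 3 coding exons of 378, 106 and 95 nt. Translated, Hpca was identical to Hpcal1 at 181 of 193 residues (93.8%) and to Ncald at 170 of 193 (88.1%), and Vsnl1 was 66.7% identical to Hpca. Calb1 and Calb2 had 11 coding exons each and were 58.1% identical in protein. One coding exon of each family is shown, because it lets the members that the counts separate be compared letter by letter. Capitals mark the positions at which the members of a family differ, on the coding strand and on build GRCm38. The third coding exon of the calmodulins lies at chr17:87435791-87435934 (minus strand) for Calm2 and chr7:16917585-16917728 (minus strand) for Calm3, and 24 of its 144 positions differ.
Calm2: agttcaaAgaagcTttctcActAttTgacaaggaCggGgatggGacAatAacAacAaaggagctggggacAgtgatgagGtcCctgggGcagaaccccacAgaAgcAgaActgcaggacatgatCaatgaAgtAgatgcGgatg
Calm3: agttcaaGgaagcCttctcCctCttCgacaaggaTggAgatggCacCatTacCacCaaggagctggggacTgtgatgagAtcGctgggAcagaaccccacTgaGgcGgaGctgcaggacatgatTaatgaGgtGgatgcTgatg
The second coding exon of the hippocalcin group lies at chr4:129112675-129112780 (minus strand) in Hpca, chr12:17787545-17787650 (plus strand) in Hpcal1 and chr15:37372116-37372221 (minus strand) in Ncald. Of its 106 positions, 31 vary.
Hpca: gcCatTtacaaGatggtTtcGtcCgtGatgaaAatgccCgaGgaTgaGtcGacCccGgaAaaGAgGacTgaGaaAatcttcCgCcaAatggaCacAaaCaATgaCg
Hpcal1: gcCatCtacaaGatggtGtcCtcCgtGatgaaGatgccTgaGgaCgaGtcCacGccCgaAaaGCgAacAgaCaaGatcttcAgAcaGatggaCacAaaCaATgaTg
Ncald: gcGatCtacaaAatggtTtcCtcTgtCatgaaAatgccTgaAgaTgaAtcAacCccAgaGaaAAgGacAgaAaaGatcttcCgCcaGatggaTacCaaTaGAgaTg
The sixth coding exon of the calbindins lies at chr4:15898878-15898955 (plus strand) in Calb1 and chr8:110148514-110148591 (minus strand) in Calb2, with 33 of 78 positions different.
Calb1: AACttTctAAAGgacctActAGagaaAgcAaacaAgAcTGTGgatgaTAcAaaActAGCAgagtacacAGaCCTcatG
Calb2: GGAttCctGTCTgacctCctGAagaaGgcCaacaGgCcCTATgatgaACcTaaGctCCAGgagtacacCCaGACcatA

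Most members were highest in ganglion or amacrine cells. The highest class was RGC for 6 of the 9 (Calm2, Calb2, Pvalb, Hpca, Hpcal1 and Vsnl1), AC for Calm3 and Calb1, and MG for Ncald. Among the 9868 genes with at least 100 counts, RGC was highest for 15%, AC for 19.7% and MG for 17%. In 7 members the highest class and the next were RGC and AC, in either order, a pattern seen in 17.3% of all genes; the exceptions were Hpcal1, with rods next, and Ncald. The highest class was at least 2-fold above the next in 6 members, against 29.9% of all genes. These were 4 members highest in RGC (4.26% of all genes), 1 in AC (5.51%) and 1 in MG (8.28%). The median fold was 2.16 for the members and 1.46 for all genes. Together the members held 3.83% of the RGC counts and 1.18% of the AC counts, and from 0.136 to 0.217% in the other columns. These sums rest mostly on Calm2 and Calb2. Of the 134256 member counts in RGC, 80769 were of Calb2 and 43210 of Calm2. Of the 568346 in AC, 444744 were of Calm2.

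**Figure D1:**
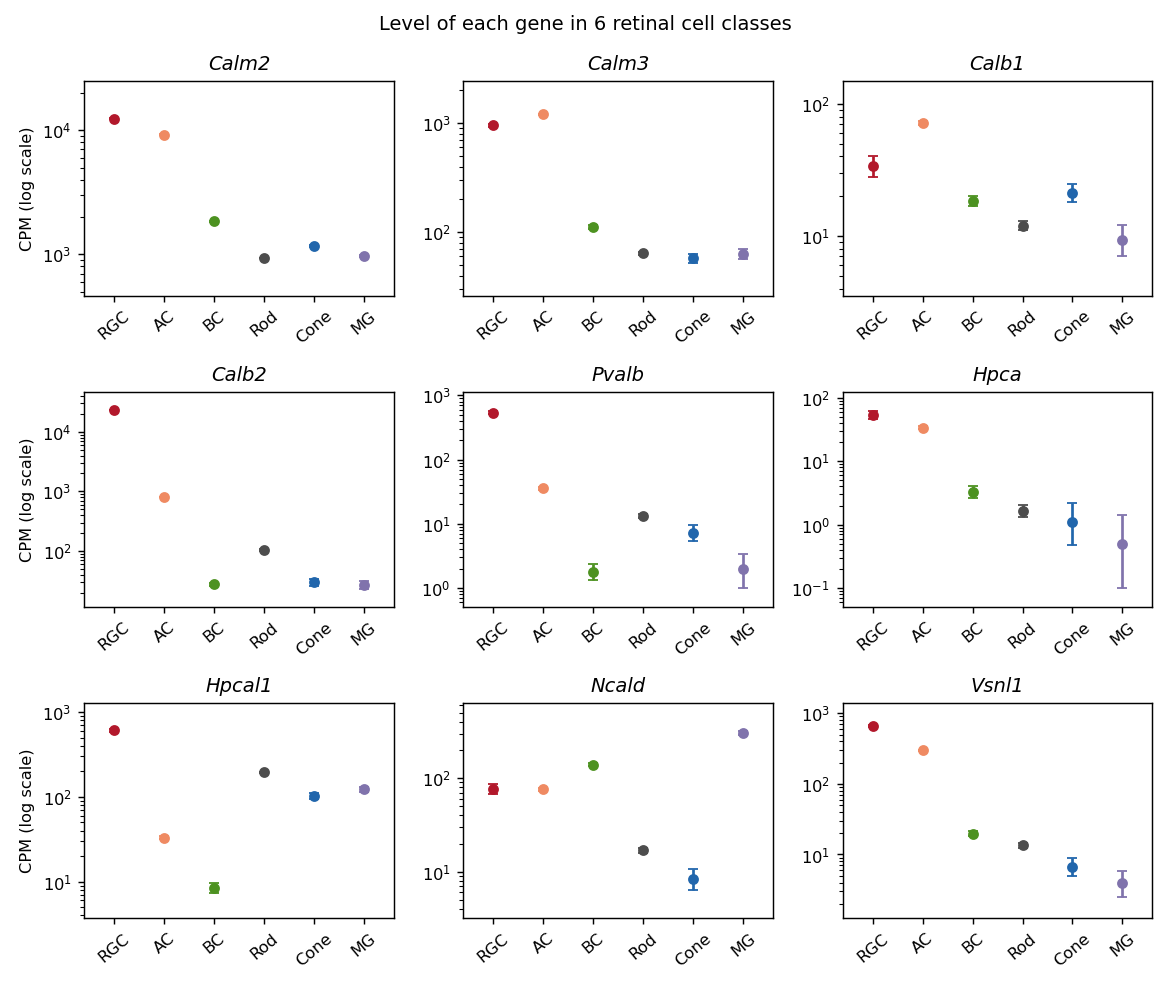
Level of each of the 9 genes in 6 cell classes, in CPM on a log axis that differs between panels; points are the pooled column of a class and bars are exact Poisson 95% intervals for counting error. RGC and AC are the 2 highest classes in 7 of the 9 panels, Hpcal1 is lowest in BC at 8.45 CPM, and Ncald is highest in MG at 302 CPM.

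Calmodulin transcripts were found in every class. Calm2 (ENSMUSG00000036438.14, chromosome 17, 87433412 to 87446856, minus strand) had 12311 CPM in RGC, 9218 in AC, 1840 in BC, 1169 in cones, 969 in MG and 935 in rods. The ganglion cell level was 1.34-fold that of amacrine cells (1.32 to 1.35) and 13.2-fold that of rods (13 to 13.3). Its 1 isoform, ENSMUST00000040440.6 with 6 exons, had the most counts in the AC column among the 36426 isoforms with a model, 444744. Divided by model length, it was at 8186 CPM per kb in AC and ranked 10 of these 36426, and in RGC it ranked 5. Calm3 (ENSMUSG00000019370.10, chromosome 7, 16915379 to 16923912, minus strand) had 1209 CPM in AC, 953 in RGC, 111 in BC, 64.0 in rods, 62.9 in MG and 57.5 in cones. Amacrine cells were 1.27-fold above ganglion cells (1.22 to 1.31), the opposite order to Calm2, and 21-fold above cones. For rods, MG and cones the intervals of neighbours in this order overlapped. As a percent of the highest class, the rod level was 7.59% for Calm2 and 5.29% for Calm3.

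Among the buffers, Calb2 and Pvalb were concentrated in ganglion cells, and Calb1 was spread over more classes. Calb2 (ENSMUSG00000003657.9, chromosome 8, 110142538 to 110168210, minus strand), with 11 exons in its 1 isoform, had 23012 CPM in RGC, 802 in AC, 104 in rods, 30.0 in cones, 27.6 in BC and 26.9 in MG. Among the isoforms with a model it had the most counts in the RGC column (80769), and per length it ranked 3 of 36426 there, with 16036 CPM per kb. Ganglion cells were 28.7-fold above amacrine cells (28.3 to 29.0), and the intervals of cones, BC and MG overlapped. Pvalb (ENSMUSG00000005716.16, chromosome 15, 78191479 to 78204237, minus strand), in 1 isoform of 4 exons, had 537 CPM in RGC, 35.8 in AC, 13.1 in rods, 7.25 in cones, 1.96 in MG and 1.79 in BC. The ganglion cell level was 15-fold that of amacrine cells (14 to 16), and MG and BC were not distinguishable at this depth, with 12 and 52 counts. RGC held 95.9% of the summed CPM of Calb2 and 90.0% of that of Pvalb.

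Calb1 (ENSMUSG00000028222.2, chromosome 4, 15881264 to 15905562, plus strand) had 72.1 CPM in AC, 33.9 in RGC, 21.2 in cones, 18.5 in BC, 12 in rods and 9.29 in MG. Amacrine cells were 2.13-fold above ganglion cells (1.77 to 2.57), whose level rests on 119 counts, and AC held 43.2% of the summed CPM. Cones and BC had overlapping intervals, as had rods and MG. Horizontal cells, which are known for calbindin, have no column. Of 6 genes listed for them 4 were in the table, and their sum ran from 18.1 CPM in cones to 192 in RGC, almost all of it Tpm3. The transcription factors Onecut1 and Onecut2 were at most 1.52 and 2.19 CPM in any class and at 0 counts in RGC, and the part of horizontal cells in the Calb1 levels was not tested.

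Levels outside the ganglion cell column were set beside those of ganglion cell markers. The 6 markers Rbpms, Pou4f1, Pou4f2, Sncg, Slc17a6 and Nefl summed to 16859 CPM in RGC, and to 2.23% of that in AC, 0.670% in rods, 0.268% in MG, 0.257% in cones and 0.168% in BC. Pou4f1 and Pou4f2, transcription factors of ganglion cells, were at 0 counts in BC, cones and MG and had 2 or 3 counts in rods. Calb2 stood at 3.49% of its ganglion cell level in AC, 0.453% in rods, 0.130% in cones, 0.120% in BC and 0.117% in MG. Its values in rods, cones, BC and MG were below those of the marker sum, and its amacrine value was above. Sncg made up 93.4% of the sum, and single markers spread widely around it. In rods they ran from 0.216% of their ganglion cell level for Rbpms to 2.31% for Nefl, so Calb2 lay within their range. In AC they ran from 1.15% for Pou4f1 to 5.12% for Slc17a6, so the amacrine value of Calb2 also lay within their range. Pvalb stood at 6.67% in AC, 2.44% in rods, 1.35% in cones, 0.364% in MG (12 counts) and 0.334% in BC, above the marker sum by value. In AC and rods Pvalb was above every single marker by value, the highest being Slc17a6 at 5.12% (81 counts) and Nefl at 2.31%. No intervals were made for these percents, so such orders may lie within counting error. In cones it was below Slc17a6 (6.68%, 16 counts). In MG it was below Nefl (0.684%, 43 counts), Slc17a6 (0.995%, 2 counts) and Rbpms (9.29%, 19 counts). In BC it was below Nefl (0.693%, 206 counts), Slc17a6 (3.68%, 35 counts) and Rbpms (0.414%, 4 counts). The part of free RNA in the levels outside the ganglion cell column was not tested.

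**Figure D2:**
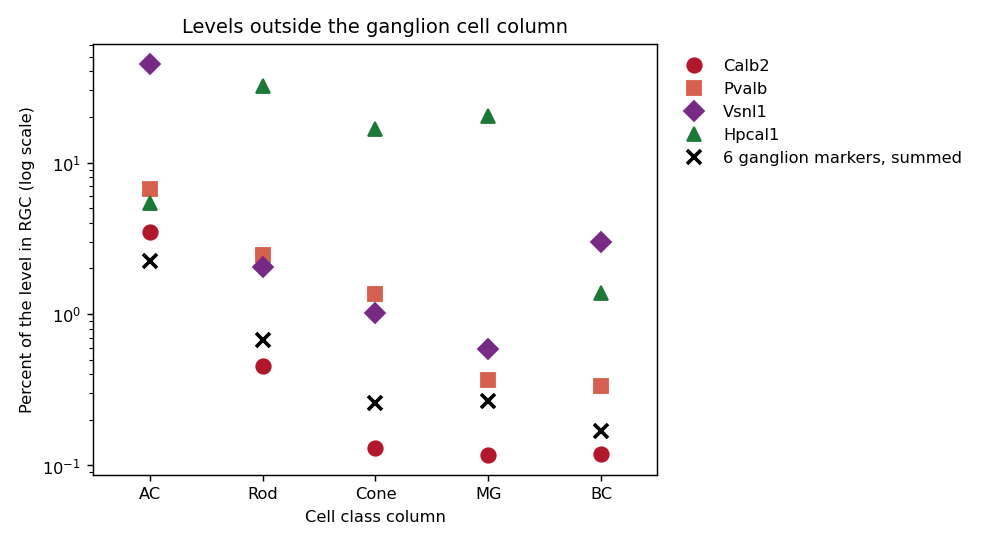
Levels in 5 cell class columns as a percent of the level in the ganglion cell column, on a log axis, for 4 members and for the sum of 6 ganglion cell markers, 93.4% of which is Sncg. Calb2 is below the marker sum in rods, cones, MG and BC, and Hpcal1 is above it in every column, reaching 31.9% in rods.

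Of the neuronal calcium sensors, Vsnl1 and Hpca followed the pattern of ganglion and amacrine cells. Vsnl1 (ENSMUSG00000054459.8, chromosome 12, 11325242 to 11436613, minus strand), in 1 isoform of 4 exons, had 664 CPM in RGC, 300 in AC, 19.8 in BC, 13.5 in rods, 6.71 in cones and 3.91 in MG. The ganglion cell level was 2.22-fold that of AC (2.12 to 2.32) and 170-fold that of MG (114 to 266), and the intervals of cones and MG overlapped. Hpca (ENSMUSG00000028785.13), a sensor first known from the hippocampus, had 53.0 CPM in RGC, 33.7 in AC, 3.27 in BC, 1.64 in rods, 1.09 in cones and 0.489 in MG. Ganglion cells were 1.57-fold above amacrine cells (1.34 to 1.83). In cones and MG, Hpca had 8 and 3 counts, and the intervals of rods and cones overlapped, as did those of cones and MG.

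Hpcal1 and Ncald, although close to Hpca in sequence, had other profiles. Hpcal1 (ENSMUSG00000071379.2, chromosome 12, 17690856 to 17791933, plus strand) had 610 CPM in RGC, 195 in rods, 123 in MG, 102 in cones, 33.2 in AC and 8.45 in BC. No intervals of neighbouring classes overlapped. Ganglion cells were 3.13-fold above rods (2.99 to 3.28) and 72.3-fold above BC (63.3 to 82.8). Amacrine cells, among the 2 highest classes in 7 other members, ranked 5 of 6 here. The rod level was 31.9% of the ganglion cell level, where the sum of the ganglion markers was at 0.670%. Hpca was 3.10% in rods on the same scale.

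Ncald (ENSMUSG00000051359.15, chromosome 15, 37368149 to 37459360, minus strand) had 302 CPM in MG, 140 in BC, 76.1 in AC, 76.1 in RGC, 17.0 in rods and 8.35 in cones. The glial level was 2.16-fold that of BC (2.04 to 2.28) and 36.2-fold that of cones, and AC and RGC had overlapping intervals. Ncald was the only one of the 9 members whose highest class was neither RGC nor AC. Genes listed as markers of other cells were also detected in the MG column. All 6 microglial genes were detected there with a sum of 1238 CPM, against 8.83 to 569 CPM in the other columns. For pigment epithelium, 5 of 6 genes were detected with 9480 CPM (8443 of it Ttr), against 2.85 to 65.9 CPM elsewhere, with Best1 at 0. All 4 of the 5 listed astrocyte genes that were in the table summed to 113 CPM in MG (0 to 4.17 CPM elsewhere), and all 3 of 6 vascular genes in it to 261 CPM (0 to 12.4 CPM elsewhere). Whether such cells are in the column, and their part in the Ncald level, was not tested.

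Over all 9 members, 45 pairs of neighbouring classes in the order of levels could be compared, and in 11 the intervals overlapped. The same count was not made over all genes, and overlap depends on depth, so it marks no trait of these members. Without the RGC column, the shallowest, the highest class was AC in 7 members, rods in Hpcal1 and MG in Ncald. It was then at least 2-fold above the next in 8 of 9 members, against 34.8% of all genes, and in 7 of these AC was highest (12.7% of all genes). AC was then 15.2-fold above BC for Vsnl1, 10.9-fold for Calm3 and 10.3-fold for Hpca. The exception was Hpcal1, with rods 1.58-fold above MG.

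The genes most like each member were found by the overlap of class profiles, the sum over 6 classes of the smaller of the shares of summed CPM, among 5226 genes with at least 1000 counts. Sncg, a ganglion cell marker, was closest to Calb2 (98.7%), followed by Rbpms2 and Nrn1. Nefl, a neurofilament subunit, was closest to Pvalb (97.2%), followed by Tppp3 and Calb2 itself (94.1%). Vsnl1 was most like Chac1 (97.5%), Gap43, a calmodulin-binding growth cone protein (97.3%), and Chst1. Hpca was most like Cda (98.1%), Bend6 and Pak1, and Vsnl1 and Hpca overlapped by 90.9%. For Calm2 the nearest were Prelid3a (96.1%), Bok and Snrpn, for Calm3 Ebag9 (95.7%), Nrsn1 and Ndrg4, and for Calb1 Pea15a (94.8%), Ndufb10 and Otub1. Mt1, a metallothionein, was closest to Ncald (96.4%), followed by Tspan4 and Itm2b. The closest gene to Hpcal1, Rnd1, overlapped by 84.3%, followed by Nop58 and Rhebl1. These are descriptions over 6 columns that share libraries, and with the correlation of log2(CPM + 1) in place of the overlap 3 of the 27 named genes were the same.

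Isoforms were then compared within members. Calm2, Calm3, Calb1, Calb2, Pvalb and Vsnl1 had 1 isoform each, 6 of 9 members, where 31.9% of genes with at least 1000 counts had 1 isoform. Each of these was an Ensembl transcript. Unannotated isoforms were found in Hpca and Hpcal1, 2 of 9 members, where 52.2% of genes with at least 1000 counts had one, and they held 0.527% of all member counts. Hpcal1 and Ncald had 2 isoforms each and Hpca had 8. In all 18 isoforms the model held the whole annotated coding sequence of its gene. The isoforms of Hpca, Hpcal1 and Ncald differed upstream of the exon with the start codon, in noncoding leader exons, apart from shifts of a few bases at 1 Hpca 3′ end. A change of the most abundant isoform between classes, with at least 100 counts in both and a difference in share of at least 50 percentage points, was seen in 0 of the 3 members that could be compared, and in 10.3% of 4739 genes. It was also 0 of 3 at 25 percentage points, which 21.5% of genes passed, and 0 of 3 at a minimum of 20 counts, which 25% passed. Hpca could not pass at 50 points, since no isoform exceeded 27.1% in AC or 22.6% in RGC, its only classes with at least 100 counts. Nor could it at a minimum of 20 counts, which added BC and rods, since no isoform exceeded 38.5%, the highest share in rods. By value, its most abundant isoform differed between AC and RGC. It was an unannotated one in AC (27.1%, 13.4% in RGC) and ENSMUST00000125931.8 in RGC (22.6%, 16.6% in AC). The leading isoform in RGC was not resolved. Its interval there (16.8 to 29.3%) overlapped that of ENSMUST00000030572.9 (17.7%, 12.5 to 24.0%).

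Hpca, with 2010 counts in all, was the member with the most varied leader. It lies on chromosome 4, 129111570 to 129122036, minus strand, and its 8 isoforms combined 4 leader exons. Numbered from the 5′ end, these were at 129121835 to 129122036, 129121570 to 129121708, 129121222 to 129121307 and 129120150 to 129120200. The Hpca models did not share a 5′ end. Those starting at 129122036, in leader exon 1, held 42.6% of counts, and the model starting at 129121925, also in leader exon 1, held 16.8%. The model starting at 129121708, in leader exon 2, held 26.0%, and that starting at 129121291, in leader exon 3, held 14.6%. The most abundant isoform was unannotated, with leader exon 3 behind a longer form of leader exon 2, and had 523 counts (26.0%). ENSMUST00000116444.9, with leader exons 1 to 3, had 20.8%, ENSMUST00000125931.8, with 1 and 3, had 16.8%, and ENSMUST00000030572.9, with exon 3 alone, had 14.6%. Unannotated isoforms made up 43.4% of Hpca counts (41.2 to 45.6%), with 43.6% in AC and 29.0% in RGC (22.6 to 36.1%). The introns of the most abundant one are part of an annotated chain. With it counted as annotated, the share was 17.4% (15.7 to 19.1%), with 16.5% in AC and 15.6% in RGC, whose intervals overlapped.

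Some leader shares of Hpca differed between the ganglion and amacrine cell columns. ENSMUST00000139450.7, which has leader exon 1 alone, made up 15.6% of the Hpca counts in RGC (10.7 to 21.6%, 29 of 186) and 3.5% in AC (2.66 to 4.52%, 57 of 1627). The isoform with leader exons 2 and 3 showed the opposite, with 13.4% in RGC (8.89 to 19.2%) and 27.1% in AC (25 to 29.3%). Summed over isoforms, leader exon 2 was in 44.1% of RGC counts (36.8 to 51.5%) and 65.6% of AC counts (63.3 to 68.0%), and leader exon 3 in 68.8% and 83.3%. Leader exon 1 was in 68.8% of RGC counts (61.6 to 75.4%) and 58.6% of AC counts (56.2 to 61.0%). In rods, on 91 counts, leader exon 2 was in 81.3% (71.8 to 88.7%). The intervals of RGC and AC did not overlap in any of these comparisons, which are part of those possible. They did overlap for ENSMUST00000116444.9, ENSMUST00000125931.8, ENSMUST00000030572.9 and leader exon 4. They also overlapped for the unannotated isoforms with leader exons 1, 2 and 4 and with 1 and 2. How often such intervals overlap over all genes was not counted. A model that starts in leader exon 2 or 3 lacks the leader exons upstream of its start. The shares of leader exons 1 and 2 and of the isoform with leader exons 2 and 3 thus depend on model starts as well as on splicing. The part of each in the differences between RGC and AC was not tested. Whether the downstream starts are ends of transcripts or of reads cut short was not tested either. ENSMUST00000139450.7 starts at the 5′-most end, 129122036.

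Leader exon 4 was more frequent in bipolar than in amacrine or ganglion cells, on few counts. The isoform with all 4 leader exons, chosen for mention after its values were seen, had 28 of 95 counts in BC (29.5%, 20.6 to 39.7%), 54 of 1627 in AC (3.32%) and 0 of 186 in RGC, an exact interval of up to 1.96%. Leader exon 4 was in 38.9% of BC counts (29.1 to 49.5%), 12.4% of AC counts (10.9 to 14.1%), 7.69% of rod counts and 6.99% of RGC counts. Cones had 5 of 8 counts with it, all of the isoform with 4 leader exons (62.5%, 24.5 to 91.5%), an interval that overlaps that of BC. Both BC and cones were under the minimum of 100 counts for naming isoforms.

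**Figure D3:**
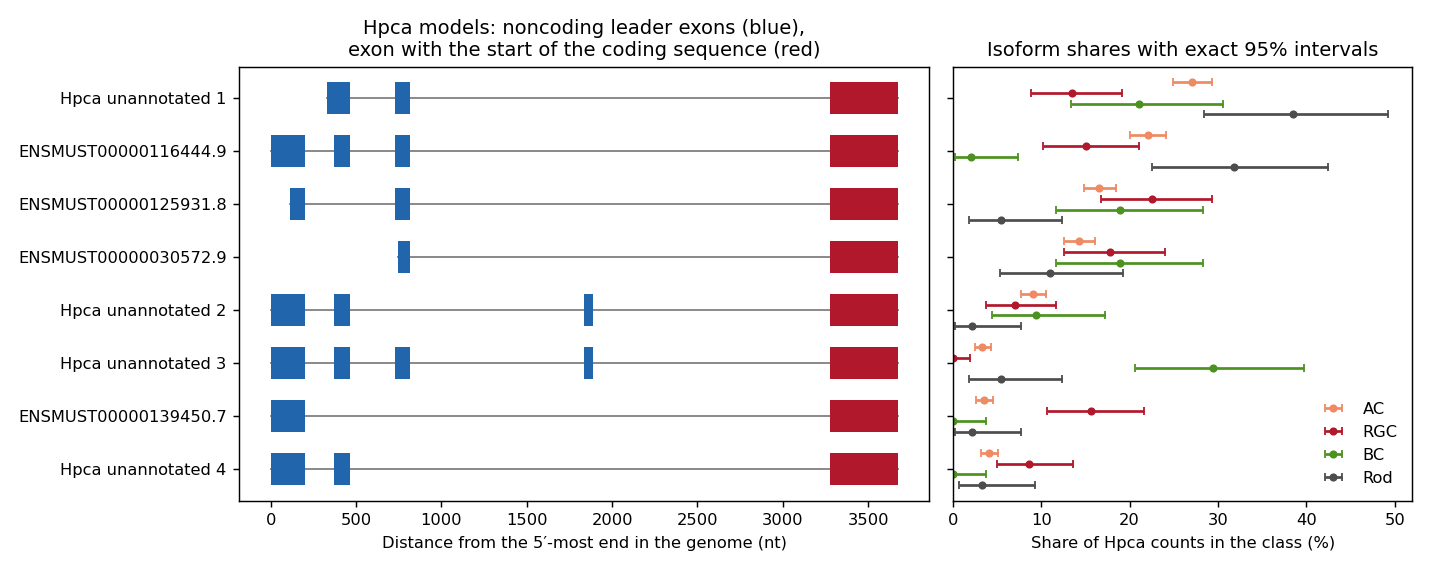
Left, the 5′ part of the 8 Hpca models as distance in nt from the 5′-most end, with noncoding leader exons in blue and the exon that holds the start codon in red; right, the share of each isoform among Hpca counts in 4 classes, with exact 95% intervals. The isoform with all 4 leader exons is at 29.5% in BC and 0 in RGC, and ENSMUST00000139450.7 is at 15.6% in RGC and 3.5% in AC.

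Hpcal1 had 1 optional leader exon. Its annotated isoform, ENSMUST00000071858.4, has 4 exons, and an unannotated isoform of 5 exons adds an exon of 86 nt at 17767214 to 17767299. M21 has this exon, in ENSMUST00000222944.1, but behind another first exon. The added exon was in 29.8% of counts in MG (26.5 to 33.2%), 25.7% in BC (20.4 to 31.7%), 24.1% in rods (23.3 to 24.9%), 22.8% in AC (20.7 to 24.9%), 20.3% in cones (17.5 to 23.4%) and 11.9% in RGC (10.5 to 13.3%). RGC, where Hpcal1 was highest, thus had the lowest share, and its interval overlapped that of no other class. The difference of 17.9 percentage points between MG and RGC was the largest in any isoform share among the members, where both classes had to hold 100 or more counts of the gene.

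Ncald used its leader almost uniformly. ENSMUST00000119730.7, with 4 exons, made up 95.4% of 10854 counts, and ENSMUST00000120746.7 adds a leader exon of 52 nt at 37448228 to 37448279. That exon was in 3.95% of counts in AC (3.34 to 4.63%), 4.21% in MG, 4.25% in rods, 5.15% in BC (4.49 to 5.87%) and 7.87% in RGC (4.93 to 11.8%, 21 of 267). Cones had 3 of 61 counts with it. Only the intervals of AC and RGC failed to overlap. These isoforms are 2 of 12 M21 transcripts of Ncald, and both start at the same 5′ end, 37459360.

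**Figure D4:**
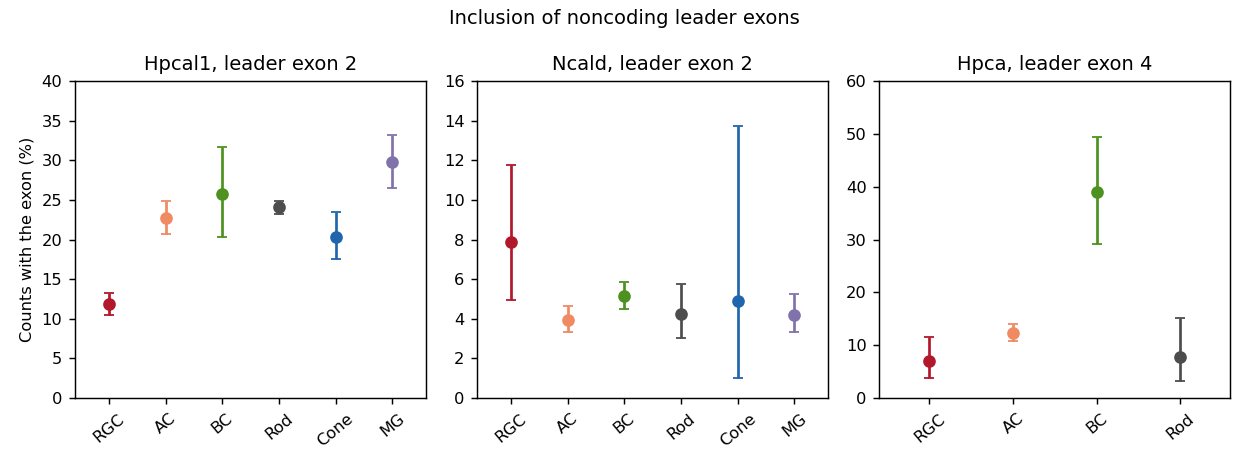
Percent of a gene's counts that carry an optional noncoding leader exon, by cell class, with exact 95% intervals; the vertical scale differs between panels. Hpcal1 leader exon 2 is lowest in RGC at 11.9%, Ncald leader exon 2 stays between 3.95 and 7.87%, and Hpca leader exon 4, shown for 4 classes without cones (8 counts) and MG (3 counts), is at 38.9% in BC and 12.4% in AC.

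Other EF-hand genes were read from a list of 30, of which 29 were in the table and 24 had at least 100 counts. In 17 of the 24 the highest class was at least 2-fold above the next, against 29.9% of all genes, with a median fold of 4.86. These were AC for 5 genes (5.51% of all genes), MG for 5 (8.28%), BC for 3 (3.65%), RGC for 3 (4.26%) and rods for 1 (6.85%). Guca1b, an activator of guanylate cyclase in photoreceptors, had 4187 CPM in rods, 11.5-fold above MG. Cabp5 and Cabp2, relatives of calmodulin that act on calcium channels, had 533 and 341 CPM in BC, and Scgn (secretagogin) had 401 CPM there. S100a1 had 1403 CPM in MG, S100a10 1995 CPM in RGC, Cib2 256 CPM in AC and Kcnip1, a subunit of A-type potassium channels, 230 CPM in AC. Rcvrn (recoverin), the photoreceptor relative of Hpca and Vsnl1, had 14696 CPM in rods, 10014 in cones and 0 counts in RGC, and did not pass the rule, with rods 1.47-fold above cones; it was chosen for mention after its values were seen.

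Among 18 genes for calmodulin partners and calcium extrusion, 17 were in the table and 13 had at least 100 counts. The rule of size was passed by 4 of the 13, near the 29.9% of all genes. Gap43 had 606 CPM in RGC, 2.27-fold above AC, and Pcp4l1 had 576 CPM in AC, 2.33-fold above RGC. Slc8a1, a sodium-calcium exchanger, had 16.1 CPM in AC, and Slc24a1, the exchanger of rod outer segments, 16 CPM in rods.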

How the data were processed

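Raw counts of isoforms were deposited by the authors for 6 class columns. No column is tied to a library, so each was treated as a pool of the 4 libraries. Models come from the authors' deposited annotation, whose source field reads FLAIR, a tool for assembling long reads into isoforms. The build is mm10 per the submitters' processing notes. The aligner, the calling and typing of cells, doublets and the collapsing of reads to molecules are not given in the sources used here.

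Counts of all isoforms of an Ensembl gene were summed and scaled to 1000000 per column. Symbols came from the Ensembl gene identifier. Isoforms that carry the identifier of an Ensembl transcript were called annotated. Exons, coding sequences and transcript sequences came from GENCODE M21 (GRCm38). Levels have exact Poisson and shares exact Clopper-Pearson 95% intervals, which cover counting error only. They treat each count as an independent molecule, which the sources used here do not settle. If counts are reads not collapsed to molecules, the intervals are too narrow. The limit that a count of 0 allows, 3 counts, was 0.0541 CPM in rods and 0.855 CPM in RGC. Genes entered comparisons with at least 100 counts. Isoforms were named with at least 5% of a member's counts in a class with at least 100, for each member the 3 genes of most similar profile, and in each related list the 8 genes with the most counts that passed the rule. Proteins were aligned with the BLOSUM62 matrix. The rules of size were run on simulated counts with planted changes and counting error only. Spread between cells or libraries was not simulated, so this does not show how the rules act under it. A further gene of the EF-hand list is not reported here and was left out of its counts. Members, lists and rules were chosen with earlier results of these data known. Tools were Python 3.11.15, numpy 2.4.6, pandas 2.3.3, scipy 1.17.1, matplotlib 3.10.9 and R 4.3.3, in which the trimmed mean of M-values was coded. Alternatives were other scalings, filters on isoforms, equal depth, other folds and minimums, the same introns summed, and another measure of similarity. No test between classes was made, since a class has 1 sample.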

Additional observations from a re-analysis of the deposited data

How the results depend on the processing

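RGC was the highest class in 6 members under all 6 alternatives of scaling, filter and depth that were run, and no member changed its highest class under them. The number of members at least 2-fold above the next class was 5 with scaling by the median of ratios, where Calb1 was 1.88-fold, 7 at a fold of 1.5 and 2 at a fold of 5 (Calb2 and Pvalb). Of 54 folds of single members under these alternatives, 40 stayed within the counting interval and 14 moved, all keeping their direction. The filters for at least 10 counts and at least 2 exons removed no member isoform, so they could change neither folds nor highest classes. Keeping only annotated isoforms could change Hpca and Hpcal1 alone. Many of the folds that stayed were thus fixed in advance. Scaling by the median of ratios moved the median of all genes, as log2(CPM + 1) against the mean of the classes, from 0.11 to 0.36 in MG and from 0.05 to -0.12 in AC; the trimmed mean of M-values moved it from -0.34 to -0.45 in RGC. Unannotated isoforms held 0.527% of all member counts, 0.466% when parts of annotated intron chains counted as annotated, and were 27.8% of the isoforms. With correlation in place of profile overlap, 3 of 27 nearest genes were shared. No member changed its most abundant isoform by the rule at 20 counts, 25 points, equal depth or with the same introns summed, and only 3 members could be compared. In Hpca the most abundant isoform differed by value between AC and RGC, but the leading isoform in RGC was not resolved. The largest difference in share was 13.7 points, below the minimum of the rule. Leaving out a library could not be run, since columns do not separate them. No paired analysis was possible because each class is a single pooled column. Depth limits Hpca in cones and MG, with 8 and 3 counts.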
